A study of Rattus norvegicus with 6 samples.

Results

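Among probes for PIWI-interacting RNAs (piRNAs) on a rat small RNA array, 541 were detected in all samples and were dimmer in every adult islet sample than in any islet sample from 10-day-old pups. They are 541 of the 39727 piRNA probes on the array and 541 of the 8874 (6.10%) detected on every array, which means well above background on all 6 and free of outlier marks. A level is the log2 of the background-subtracted brightness of a probe minus the 75th percentile of that array, taken over the piRNA probes that were well above background on all 6 arrays. A level of 0 is therefore the brightness of a fairly bright detected probe, and a difference of 1 between levels is 2-fold. A probe was included when its highest adult level lay below its lowest P10 level and its P10 mean exceeded its adult mean by more than 1. Of the 8874 probes, 1044 (11.8%) met the first condition. The adult and P10 levels thus chose the probes, so that their direction and size describe the selection and are not tested as a finding. The mirrored rule, with adult above P10, took 792 of the same 8874 probes (8.92%).

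RNA came from pancreatic islets of Rattus norvegicus aged 10 days (postnatal day 10, P10) and of adult rats aged 3 months, with 3 arrays per age. Each P10 sample pooled the islets of 2 pups, whereas each adult sample came from 1 animal, so that a P10 array already averages animals and an adult array does not. No strain, sex or treatment is given in the labels for either age. The comparison asks which piRNAs differ between pup islets, whose beta cells have not finished maturing, and adult islets.

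piRNAs are small RNAs, somewhat longer than microRNAs, that bind the PIWI branch of the Argonaute proteins. They are best known from the germline, where they guide PIWI proteins to transposon transcripts and are cut from long single-stranded precursors that come from genomic clusters. Islets are the endocrine clusters of the pancreas, and their beta cells acquire mature glucose-stimulated insulin secretion in the weeks after birth. Each probe is named here by the piRNA entry that it carries. Its sequence and its place in the genome were not used here, so no chromosome, gene, first base or target is stated. In RNA from whole islets, fewer cells of a type and less RNA per cell cannot be told apart.

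The arrays detected between 10964 and 14598 piRNA probes each, and the 75th percentile that sets level 0 lay between 101.5 and 185.9 units of processed signal. The 153 spots of the negative control probe had a median between 1.18 and 1.33 units per array and a highest value of 4.17, and none was well above background, whereas the dimmest detected piRNA spot on an array was between 5.46 and 6.03 units. The 3 P10 arrays and Adult 1 were on 1 slide, and Adult 2 and Adult 3 on the other, so age and slide overlap in part. Of 38 genes that mark islet endocrine cells, other pancreatic, vascular or blood cells or the piRNA pathway, 0 had a probe on the array, so the tissue label and the make-up of the islet preparations could not be checked. Adult 1 stood apart from the other adults, which touches the results given below. Across the 541 probes Adult 2 and Adult 3 correlated at a Pearson r of 0.98 and each of them with Adult 1 at 0.91. Among the pups P10 3 correlated at 0.89 with P10 1 and with P10 2, and P10 1 with P10 2 at 0.83. P10 1, P10 2 and P10 3 each correlated more closely with Adult 1, at 0.93, 0.90 and 0.90, than with any other pup array. P10 2 also did so with Adult 2, at 0.91. These correlations run over probes of the same arrays and are a description.

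Across the 541 probes the median level was -0.50 in P10 1, -0.53 in P10 2 and 0.09 in P10 3. In the adult samples the medians were -1.59 in Adult 1, -2.23 in Adult 2 and -2.30 in Adult 3. P10 3 was the brightest array for the typical probe of the set and Adult 3 the dimmest, and Adult 1 lay between the pups and the other 2 adults. The adult minus P10 difference ran from -4.33 to -1.003 with a median of -1.49, or 2.81-fold lower in adult islets, beside a median of 0.05 over all 8874 detected probes. Differences were mostly modest. In 273 probes the P10 mean exceeded the adult mean by up to 1.5, in 142 by 1.5 to 2, in 103 by 2 to 3 and in 23 by more than 3. The gap between the lowest P10 and the highest adult level had a median of 0.48 and exceeded 1 in 68 probes.

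The pups differed among themselves more than the adults did. The SD over the 3 arrays of an age had a median of 0.65 in P10 and 0.38 in adult islets, and was larger in P10 for 379 of the 541 probes. Over all 8874 detected probes the medians were 0.42 and 0.34, and the P10 SD was larger for 5335. The error that the scanner software assigns to a spot, taken on the worst of the 6 arrays, had a median of 11.8% of the signal over the 541 probes and was at most 22.3%.

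The probe with the largest difference was DQ603071. Its levels were 6.39, 2.48 and 3.90 in P10 1, P10 2 and P10 3, against 2.11, -1.16 and -1.17 in Adult 1, Adult 2 and Adult 3. The ages did not overlap, but Adult 1 was within 0.37 of P10 2, while the other 2 adults were far below. The adult minus P10 difference was -4.33 ± 1.18 on the log2 scale (SE, limma adjusted p = 0.067), which is 20.1-fold lower and not past the threshold of 0.05. DQ736825 had the same profile at a brighter level. It read 8.20, 4.70 and 5.34 in the P10 arrays and 4.32, 0.84 and 0.63 in the adult arrays, a difference of -4.15 ± 1.20 (SE, limma adjusted p = 0.075). In DQ603914 the levels were 6.25, 2.42 and 3.63 in the P10 arrays and 1.22, -0.47 and -0.47 in the adult arrays. Here all adults lay at least 1.20 below the lowest pup array, and the difference was -4.01 ± 0.96 (SE, limma adjusted p = 0.052). In all 3 probes P10 1 was the highest array by more than 2 on the log2 scale, and Adult 1 topped the adults.

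Of the other 7 of the 10 largest differences, 5 passed the test. DQ749464, the largest of these, fell from 2.16, 1.16 and 1.79 in the P10 arrays to -0.50, -2.77 and -3.43 in the adult arrays. The pups were close to one another and the adults were not, with Adult 1 well above the other 2 (difference -3.93 ± 0.73, SE, limma adjusted p = 0.042). DQ603076 fell from 1.93, -0.23 and 1.86 to -1.27, -3.22 and -3.05, and DQ603991 from 2.14, -0.53 and 1.60 to -1.61, -3.13 and -3.10. In both, P10 1 and P10 3 were alike and P10 2 was lower, and Adult 2 and Adult 3 were alike and Adult 1 higher. DQ616486 fell from 2.33, -0.05 and 2.47 to -1.08, -2.55 and -2.51, with P10 2 again the lowest pup array and Adult 1 the highest of the adults. DQ742187 fell from -0.98, 0.96 and 1.52 to -2.25, -3.46 and -3.36, and in it P10 1 was the lowest pup array. DQ610128 and DQ621778 did not pass. DQ621778 read 1.18, 4.89 and 5.09 in the P10 arrays against 1.05, 0.59 and -1.27 in the adult arrays, so that P10 1 lay beside the adults, 0.13 above Adult 1. With normexp background correction, a setting that adds an offset of 50 units, 3 of the 5 calls ended: the difference became -1.87 in DQ603076 (limma adjusted p = 0.071), -1.88 in DQ603991 (0.080) and -1.25 in DQ742187 (0.295). DQ749464 and DQ616486 still passed with normexp, at -2.12 and -2.22. Their calls ended with cyclic loess (limma adjusted p = 0.052 and 0.056) and without Adult 2 (0.1515 in both).

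The brightest probe of the set, DQ625276, had a processed signal of 58970, 43310 and 39550 units in the P10 arrays and of 26300, 17840 and 16940 in the adult arrays. As levels these were 8.31, 8.74 and 8.06 against 7.47, 7.29 and 7.32, tight within each age and separated by 0.58. The difference was -1.01 ± 0.30 (SE, limma adjusted p = 0.080), and its size depended on the scaling. It was -1.74 with quantile normalization (limma adjusted p = 0.044) and -1.72 on the deposited value table (limma adjusted p = 0.036), where the median of the set was -1.51. DQ761689 combined brightness with a large difference. Its levels were 6.88, 4.77 and 5.96 in the P10 arrays and 2.80, 2.50 and 2.53 in the adult arrays, with all 3 adults alike and the widest gap between the ages in the set, 1.97. It fell by 3.26 ± 0.52 on the log2 scale (SE, limma adjusted p = 0.042). This call, like every other in the set, ended without P10 2, without P10 3, without Adult 2 or without Adult 3.

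Of the other 6 probes among the 8 brightest in P10, DQ615633, DQ602508 and DQ614254 had adult levels that hardly varied and P10 levels that did. DQ602508 read 3.21, 3.27 and 3.25 in the adult arrays against 6.86, 4.09 and 5.22 in the P10 arrays. DQ614254 read 2.99, 2.93 and 3.04 in the adult arrays against 6.65, 3.83 and 5.00 in the P10 arrays. The adult SDs were 0.03 and 0.05 and the P10 SDs 1.39 and 1.42, with P10 1 highest and P10 2 lowest in both. DQ764714 and DQ623341 had another order, with P10 2 highest at 5.82 and 6.12 and P10 1 lowest at 4.39 and 4.35 (log2 levels). None of these 5 passed the test, with limma adjusted p between 0.054 and 0.169. The remaining one, DQ736825, is given above. DQ610474, which joins them among the 6 brightest in adult islets, read 4.64, 4.57 and 5.05 in the P10 arrays and 3.76, 3.77 and 3.66 in the adult arrays (limma adjusted p = 0.068).

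Among the 126 probes whose ages differed by more than 2, DQ612202 had the smallest P10 spread. Its levels were -0.68, -0.53 and -0.88 in the P10 arrays and -2.83, -3.35 and -3.41 in the adult arrays, and it fell by 2.50 ± 0.30 on the log2 scale (SE, limma adjusted p = 0.038). DQ605346 read -1.64, -1.20 and -1.76 against -3.58, -3.75 and -3.45, with both ages tight, and fell by 2.06 ± 0.29 (SE, limma adjusted p = 0.038). DQ608007 and DQ618321 had P10 SDs of 0.24 and 0.35 and more scattered adults, with adult SDs of 0.74 and 0.91, and fell by 2.25 ± 0.42 and 2.26 ± 0.48 (SE). All 4 calls ended with normexp, where the differences were -0.46 in DQ612202, -0.15 in DQ605346, -1.12 in DQ608007 and -0.56 in DQ618321 (limma adjusted p between 0.199 and 0.845). In the adult arrays DQ605346 had signals of only 12.4, 8.43 and 9.74 units, near the detection limit, while those of DQ608007 were 72.8, 42.0 and 19.2 units. DQ611514 was tight only in adults, at 1.39, 1.30 and 1.25 against 4.68, 2.85 and 5.28 in the pups. Its adult signals were brighter, at 387.4, 279.3 and 252.2 units. The difference was -2.96 ± 0.59 (SE, limma adjusted p = 0.042) and -2.98 with normexp. DQ613757 was also tight in adults, at -2.89, -2.81 and -2.84, while its pups ranged from -1.87 to 1.43 (limma adjusted p = 0.066).

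Adult 1 was the adult nearest to the pups in most of the set. It was the highest of the 3 adults in 378 of the 541 probes (69.9%), against 3107 of all 8874 detected probes (35.0%). Its level differed from the P10 mean by a median of -1.24, and the mean of Adult 2 and Adult 3 by -1.65. Adult 1 showed the smaller decrease in 425 probes, and the median share of the decrease of the other 2 adults that it showed was 74.2%. Slide 1 held all pups and Adult 1, so the value of -1.24 is also the difference within 1 slide. Its sign follows from the rule, and slide and animal cannot be told apart for Adult 2 and Adult 3.

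At one end, Adult 1 lay farthest above the other adults in DQ736825, DQ730006, DQ603071 and DQ735260, by more than 3 on the log2 scale in each. DQ735260 read 1.32, -0.59 and -0.08 in the P10 arrays, and -0.61, -3.88 and -3.85 in the adult arrays, so Adult 1 was within 0.02 of P10 2 and the gap rested on that array. At the other end, the 6 probes with Adult 1 nearest to the mean of the other adults were DQ614254, DQ748863, DQ764935, DQ750559, DQ758596 and DQ605348, within 0.008 in each. DQ748863 fell from -1.41, -0.19 and -0.46 to -3.09, -3.26 and -2.92 (limma adjusted p = 0.041), DQ764935 from -0.01, -1.65 and -1.12 to -2.88, -2.66 and -3.11 (limma adjusted p = 0.048), and DQ605348 from -2.67, -1.95 and -2.42 to -3.70, -3.75 and -3.66 (limma adjusted p = 0.048). In these 3 Adult 1 lay between the adults of the other slide. All 3 calls ended with normexp, where the differences were -0.36 in DQ748863 (limma adjusted p = 0.693), -0.37 in DQ764935 (0.692) and 0.13 in DQ605348 (0.867), the last with its sign turned. The calls of DQ764935 and DQ605348 also ended with no background correction (limma adjusted p = 0.063 and 0.230), and that of DQ764935 with quantile normalization (0.053). DQ750559 and DQ758596 differed by -1.18 and -1.01 and did not pass.

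The pup arrays had no single order. P10 3 was the highest in 261 probes (48.2%), P10 1 in 142 (26.2%) and P10 2 in 138 (25.5%), where over all 8874 detected probes the shares were 23.2%, 32.5% and 44.3%. The lowest was P10 2 in 262 probes (48.4%), P10 1 in 233 (43.1%) and P10 3 in 46 (8.50%), against 25.9%, 40.3% and 33.9% over all detected probes. In the 792 probes of the mirrored rule, P10 1 was the highest pup array, and so the nearest to the adults, in 644 (81.3%). Adult 1 was the adult nearest to the pups, as the lowest adult, in 594 of the 792 mirrored probes. As the highest adult it was nearest in 378 of the 541 here. Over all 8874 detected probes Adult 1 was the lowest adult in 47.6% and the highest in 35.0%, so these counts have different baselines. Both sets were chosen on these arrays, and the difference between their shares was not tested.

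In the limma fit over all 11911 tested probes, 98 of the 541 passed the threshold of an adjusted p of 0.05, or 18.1%. The share of all tested probes called lower in adult islets was 1.77%, or 211 probes, and 531 of the 541 had an unadjusted p below 0.05, as did 14.0% of all tested probes in this direction. In a fit over the 8874 detected probes alone 167 were called lower (1.88%), all of them in the set. Since the rule and the fit use the same contrast, nothing is read from this excess. The lowest adjusted p in the set was 0.038 and the highest 0.250. The count depended on single arrays: without P10 1 it was 234, without Adult 1 it was 281 and without both 444, whereas it was 0 without P10 2, without P10 3, without Adult 2 or without Adult 3, and 0 with the slide as a block (limma, unadjusted p below 0.05 in 461, 428, 411, 404 and 191). Over all 11911 tested probes the lower calls changed likewise. They numbered 738 without P10 1, 1155 without Adult 1 and 2124 without both, against 211 in the main fit. In the settings where 0 of the set were called, 0 of all tested probes were called lower. The median difference of the 541 lay between -1.33 and -1.65 with 1 array left out. Its sign there follows from the rule, so nothing is read from its steadiness.

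The set spanned the range of brightness except its lowest part. When the 8874 detected probes were divided into 4 equal groups by their mean level over the 6 arrays, the dimmest group held 39 of the set (1.76% of its probes), and the next 3 groups held 164, 175 and 163 (7.39%, 7.89% and 7.35%). The mirrored probes were weighted to the bright end instead, with 79, 139, 213 and 361 from the dimmest to the brightest group. The called probes numbered 3, 25, 33 and 37 in the same order, where the groups held 2219, 2218, 2218 and 2219 detected probes. These 98 are all the lower calls of the main fit among the 8874 detected probes. The median difference of the set was -1.27, -1.40, -1.55 and -1.66.

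How far these differences held under other handling of the background changed with brightness. In the brightest group the median difference was -1.66 with the processed signal, -1.60 with normexp and -1.57 with no correction. In the dimmest group it was -1.27, 0.14 and -0.45, and in the second -1.40, -0.12 and -0.76. With normexp 79 of the 541 had a difference above 0, of which 35 were in the dimmest group and 44 in the second, and 0 in the other 2. Both settings leave a constant in the signal and so shrink differences of dim probes by construction. Normexp also moved the median of all tested probes to 0.33. Relative to that shift all 541 lay below 0, with a median of -0.84, which is a description, since the probes were chosen as lower on these arrays. The shift itself changed with brightness. From the dimmest to the brightest group the normexp median of all detected probes was 0.42, 0.31, 0.17 and -0.14. Counting an adult signal as clear of the detection limit when it was at least 2 times the lowest detected signal on its array, 401 of the 541 were clear in every adult array, and 130 were so at 10 times. Of all 8874 detected probes 7158 and 2965 were so, which are larger shares. Of the 792 mirrored probes 792 and 564 were so. Both sets were chosen on their adult levels.

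The set was spread over the array and over the entry numbers. In 4 bands of array rows of equal height it had 153, 134, 127 and 127 spots, where all detected probes had 2136, 2327, 2250 and 2161. Entry numbers on the array fall into 2 stretches, and the lower stretch, DQ601959 to DQ628522, held 245 of the set (45.3%) and 42.0% of all detected probes.

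Some probes with consecutive entry numbers belonged to the set together. In all, 54 probes of the set lay in runs of consecutive numbers, 22 pairs, 2 runs of 3 and 1 run of 4. The other 487 had no probe of the set at the next number on either side. Taking each probe of the set with the number 1 above and 1 below it gave 204 pairings with a detected neighbour, and in 58 of them (28.4%) the neighbour was also in the set, against 6.10% of all detected probes. A pairing of 2 probes of the set counts here from both sides. The share was 17.4% at a distance of 2 numbers, 9.72% at 5, 7.74% at 10, 7.64% at 50 and 4.38% at 200. The mirrored probes had 22.9%, 11.5%, 23.5%, 12.0%, 16.9% and 5.08% at the same distances, against 8.92% of all detected probes, with no steady fall. Within runs the spots of neighbouring numbers were at least 24.2 spot positions apart. Over all 204 pairings the detected neighbour had a median difference of -0.18 on the log2 scale. It lay below 0 in 55.9% of them, against 46.6% of all detected probes. In the 146 pairings with a detected neighbour outside the set the median was 0.13, which leaves out the neighbours that the rule took as lower. Whether neighbouring entries share sequence, and so read the same RNA, was not tested.

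The run of 4 comprised DQ614496, DQ614497, DQ614498 and DQ614499. Their P10 3 levels of -0.21, 0.62, -0.40 and -0.69 stood above P10 1 and P10 2 in each, and P10 1 and P10 2 were alike, at -1.76 and -1.88 in DQ614496 and -1.95 and -1.95 in DQ614499. All 12 adult values lay between -3.46 and -1.73. The differences were -1.19, -1.62, -1.76 and -1.56, and none passed the test (limma adjusted p between 0.060 and 0.155). The next number, DQ614500, carried an outlier mark, which left it out of the detected probes, and was much brighter with levels from 2.88 to 3.91. Its adult minus P10 difference was 0.35.

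The run of DQ610472, DQ610473 and DQ610474 lay at the bright end. DQ610472 read 3.12, 3.11 and 3.86 in the P10 arrays against 2.64, 2.03 and 1.72 in the adult arrays, and DQ610473 read 2.91, 2.69 and 3.37 against 2.35, 1.65 and 1.62. Both share the order of arrays, with P10 3 highest and Adult 1 the highest adult. The 3 differences were -1.23, -1.12 and -1.03, and none passed the test. The flanking numbers DQ610471 and DQ610475 were detected on all 6 arrays and differed by 0.45 and -0.50.

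The run of DQ628415, DQ628416 and DQ628417 passed the test in all 3 probes (limma adjusted p = 0.046, 0.042 and 0.042). DQ628415 fell from -0.88, -1.10 and -0.24 to -1.95, -2.64 and -2.67. DQ628416 fell from -1.41, -2.17 and -0.999 to -3.29, -4.05 and -3.78, and DQ628417 from -1.86, -1.95 and -1.10 to -3.30, -4.13 and -3.74. In all 3 P10 3 was above P10 1 and P10 1 above P10 2, and Adult 1 was the highest adult. The adult signals of DQ628417 were 15.1, 6.51 and 7.95 units, next to the detection limit, and with normexp the 3 differences were -0.34, -0.14 and -0.12 and none passed. DQ628413, 2 numbers before the run, was also in the set at -1.42, and DQ628414 between them was not detected on all 6 arrays. On the other side DQ628419, 2 numbers after the run, was detected on all 6 arrays. It went the other way, with an adult minus P10 difference of 0.95.

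At the threshold on size, DQ611052, DQ731353 and DQ755325 were just inside, with adult minus P10 differences of -1.003, -1.003 and -1.006. DQ756711, DQ736516 and DQ621077 were just outside, at -0.997, -0.996 and -0.995. At the threshold on overlap, DQ735631, DQ742249 and DQ738016 had the lowest P10 level above the highest adult level by 0.004, 0.005 and 0.005. DQ736265, DQ621951 and DQ734306 overlapped by as little, with gaps of -0.006, -0.007 and -0.008.

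The authors' deposited table of changed piRNAs lists 735 probes as lower in adult islets, or 3.96% of the 18540 probes in the authors' value table, and 410 of the 8874 detected probes (4.62%). It holds 375 of the 541, which is 69.3% of the set and 51.0% of the authors' list, and it lists 0 of the 541 as higher. The fold of these 375 in the authors' deposited table ran from 2.001 to 21.9 with a median of 3.04. The table lists probes with a fold of at least 2, which sets the lower end. Of the 360 listed probes outside the set, 325 were not detected on all 6 arrays or carried an outlier mark, and 35 were. The table comes from the same arrays and is no separate evidence.

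Both piRNAs that the study took into functional work in beta cells, DQ732700 and DQ746748, were detected on all 6 arrays and were not in the set. DQ732700 read -1.77, 2.07 and 0.25 in the P10 arrays against -2.62, -1.35 and -3.07 in the adult arrays, so P10 1 lay below Adult 2 and the ages overlapped (difference -2.54 ± 0.93, SE, limma adjusted p = 0.129). DQ746748 read between -4.30 and -3.41 on all arrays.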

How the data were processed

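Per the labels' protocols, total RNA of 3 P10 and 3 adult islet samples was labelled at the 3′ end with Cy3 and each sample was hybridised to its own 1-colour piRNA array. Per the file headers, the authors extracted spot intensity with Agilent Feature Extraction 11.0.1.1, which subtracted the background and left the arrays unnormalized. The authors' deposited value table holds log2 normalized values, made by a method not given in the sources used here. In the authors' deposited comparison table per the file headers, the p-value is from an unpaired t-test without adjustment and the fold is the absolute change between the ages.

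Groups and replicate numbers came from the sample titles, and the slide from the scan identifiers. From log2 processed signals was subtracted the 75th percentile of each array, as under 50% of the piRNA probes were detected. The test took every probe that was detected on all arrays of either age and used lmFit and eBayes of limma 3.58.1 (R 4.3.3; two-sided, Benjamini-Hochberg adjustment over 11911 probes, threshold 0.05). Spots with outlier marks were left out of the fit and no spot was saturated. Normexp used the median signal, since the files hold no mean signal. A share of probes is a description, and no set test was run. The precision is limited by the number of arrays.

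The set, the lists and the rule for named probes were chosen with earlier results of these data known. Named probes are those with the 10 largest differences, the 8 highest P10 and 6 highest adult means, the 4 smallest SDs of each age among differences over 2, the 6 with Adult 1 nearest to and the 4 with Adult 1 farthest above the other adults, the 3 on each side of each threshold, the longest runs of consecutive numbers (22 pairs tied for the fourth place are not named as such), DQ732700 and DQ746748. DQ610471, DQ610475, DQ614500, DQ628413, DQ628414 and DQ628419 are named as neighbours of runs, after their values were seen.

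Replicate numbers were not taken as pairs, since deviations from the age means of same-numbered samples correlated at -0.04, 0.24 and -0.23.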

Additional observations from a re-analysis of the deposited data

Results flagged for a closer look

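Signal was present in probes that the piRNA comparison does not use. Of 159 probes for transcripts, microRNAs and custom sequences, each printed as 10 spots, 75 were detected on all 6 arrays, counting a probe as detected where more than 5 of its spots were, while no spot of the negative control probe was well above background. Of these 75, 3 met the same rule of lower adult levels and 7 the mirrored rule. A probe for Enpp1, an ectonucleotide pyrophosphatase, read 3.09, 2.15 and 1.91 in the P10 arrays and 1.52, 1.55 and 1.04 in the adult arrays. The probes A_44_P405704 and CUST_26_PI415351601, with no gene match, differed by -1.85 and -1.24 (adult minus P10, log2 scale). These 3 probes were named after their values were seen.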

How the results depend on the processing

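The set numbered 541 probes, of which 98 were called, with a median difference of -1.49. The rule applied again gave 260 probes with normexp (141 of them in the set), 296 with no background correction (285 in the set) and 126 with a difference over 2, and between 487 and 1082 with 1 array left out. Quantile normalization, cyclic loess, the percentile over all piRNA probes, the deposited value table and a signal of at least 2 times the lowest detected one kept the number within 1.5 times. The number called was 62 with normexp, 148 with no correction, 2 with cyclic loess, 170 on the deposited value table, 525 with array weights, 167 in a fit over probes detected on all 6 arrays, 0 in a fit over those detected on at least 1 (512 with an unadjusted p below 0.05, limma) and 0 with the slide as a block (191). The lower calls over all tested probes were, in the same order, 82, 191, 9, 310, 2368, 167, 0 and 0. In the main fit they were 211. With array weights 1870 probes were called higher, against 515 in the main fit. The number called in the set was between 0 and 281 with 1 array left out, and 444 without both arrays numbered 1, an alternative chosen after seeing the data. Over all tested probes the lower calls there were between 0 and 1155, and 2124. The unpaired t-test on the deposited value table gave 375 of the set at an unadjusted p of 0.05 with a fold of at least 2. It gave 0 after adjustment. With the replicate block 0 were called (530 with an unadjusted p below 0.05, limma), the median difference stayed at -1.49, and the numbers share only a label. The median difference moved beyond the replicate spread with normexp only, to -0.51. With arrays left out its sign follows from the rule. Normexp shrinks dim differences by construction through its offset, but the setting also changes the input signal, and the parts of each were not separated. The other causes were not tested. Of the 46 named probes under 20 settings, 4 reversed, all with normexp: DQ758596 to 0.066, DQ605348 to 0.13, DQ731353 to 0.23 and DQ742249 to 0.0213. In the dimmer probes of the set the size of the difference depended on how the background was handled.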
